A study of Mus musculus with 15 samples.

Results

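The exonic Sfpq peaks comprised 6534 of the 29715 peaks that were listed for Sfpq HITS-CLIP in P19 cells, or 22.0% (95% Wilson interval 21.5 to 22.5). They were taken as every Sfpq peak whose deposited genomic location was exon, which in this annotation stands beside separate classes for 3′UTR, 5′UTR and non-coding transcripts. The label was checked against RefSeq transcripts, and the peak midpoint lay in the coding sequence of the annotated transcript for 6509 of the 6514 peaks whose transcript was found. The exonic peaks are therefore peaks in protein-coding sequence. Of the same 6514 peaks, 6498 lay on the sense strand and 16 on the antisense strand. They fell on 2230 genes, and no exonic peak lay outside the placed nuclear chromosomes.

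Sfpq is a nuclear RNA-binding protein of the DBHS family, which it forms with Nono and Pspc1, and it takes part in transcription, splicing and the paraspeckle, a nuclear body built on the long non-coding RNA Neat1. Ago2 is the Argonaute protein that carries a miRNA to its target, most often in the 3′UTR of an mRNA. Coding exons are read by ribosomes in the cytoplasm, and they are the part of the pre-mRNA that is kept, together with the UTRs, when introns are removed.

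HITS-CLIP crosslinks a protein to RNA in living cells with UV light and sequences the RNA that is immunoprecipitated with it. P19 is a mouse embryonal carcinoma cell line, and all 5 groups of libraries came from it, with 3 replicates per group. The Sfpq groups were control cells and cells given siRNA against Sfpq (siSfpq), and the Ago2 groups were cells given a let-7a mimic, siSfpq, or siSfpq and the let-7a mimic. The Sfpq peaks were called from the comparison of control with siSfpq cells, after the replicates were merged by the authors, and each carries a dCLIP score, for which the authors set a threshold of 7. A further Ago2 list, called control Ago2 below, holds Ago2 peaks of control P19 cells, and its libraries were not analysed here. The study's own control cells received a control mimic and a control siRNA. For endogenous Ago2 peaks, though, the paper cites an earlier HITS-CLIP study of P19 cells.

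The deposited lists hold no value per library, so neither replicate error nor depth per sample was known, and every interval below covers counting error over peaks or genes alone. Peaks of 1 gene share their RNA and are not independent. A difference in the amount of an mRNA between control and siSfpq cells was not tested, since RNA levels are not part of these lists. Sfpq itself is the target of the siRNA, so for its own mRNA less bound protein and less RNA cannot be told apart.

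The windows below show the middle of the highest-scored exonic peaks and of the strongest peak in a few other genes that the results turn on. Each is 30 nt of mouse RefSeq assembly GRCm38 (mm10), written as RNA from 5′ to 3′ on the strand of the peak. Capitals mark the words CUGU, CUGA and NUGUA, which the study connects with Sfpq binding. The words were searched on the transcribed strand only, and NUGUA shares letters with CUGU where a window holds CUGUA.
Hspa5, chr2:34776068-34776097, score 243: ucccccaacuggugaagaggauacaucaga
Slc2a3, chr6:122737220-122737249, score 227: cuuaugggauucgccaagauagcggagucu
Canx, chr11:50311658-50311687, score 180: auugaagaugaucuugaugauguuauugaa
Pdia3, chr2:121434843-121434872, score 166: CUGAuugaauuuuacgccccuugguguggc
Hsp90b1, chr10:86696768-86696797, score 162: uaucaaaccaauauggcagagaccauccaa
Calr, chr8:84844738-84844767, score 138: accuauacacaCUGAuugugcggccagaca
Pdia6, chr12:17278590-17278619, score 135: gugaagacguuuggaugguugaguuuuaug
Ctsl, chr13:64367890-64367919, score 95: aagauccccaaguCUGUggacuggagagaa
Fat1, chr8:45044138-45044167, score 65: uagugaugguguucguccucugccggaaga
Trim71, chr9:114513530-114513559, score 35: acaUUGUAcaaucagcauauagagaacagc
Rlim, chrX:103962535-103962564, score 33: uguCUGAgaauuccacCUGUcccauuuguc
Huwe1, chrX:151843065-151843094, score 26: auAUGUAuuuagcaaaagaucaaacuauau
The windows of Hspa5, Slc2a3, Canx, Hsp90b1, Pdia6 and Fat1 held none of the words. Those of Pdia3, Calr and Ctsl held a single CUGU or CUGA, Rlim held both CUGA and CUGU, and Trim71 and Huwe1 held a NUGUA. A window without a word does not mean a peak without one. Over its whole length the Hspa5 peak held 5 CUGU or CUGA and 5 NUGUA. The whole Slc2a3 peak held 4 CUGU or CUGA, and those of Canx and Hsp90b1 held 1 each. The whole peaks of Pdia6 and Fat1 held none of the words.

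Most genes carried few exonic peaks, and a small group carried many. Of the 2230 genes, 1018 (45.7%) had 1 exonic peak, 829 had 2 to 4, 285 had 5 to 9, and 98 (4.39%) had 10 or more. The 98 genes held 1485 peaks, which was 22.7% of all exonic peaks. The median was 2 peaks per gene and the highest number was 59.

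That gene was Fat1, an atypical cadherin and one of the largest membrane proteins, with 59 exonic peaks over a coding sequence of 13773 nt, against 4 peaks in its 3′UTR and 8 in introns. Scores of the Fat1 peaks ran from 8 to 65 with a median of 21. The peaks touched 19 of its 26 exons, and 33 of the 59 lay in its large exons 1 and 9. Lrp2, the endocytic receptor megalin, followed with 54 exonic peaks over 13983 nt, spread over 44 of 79 exons with at most 5 in any of them. It had 5 peaks in the 3′UTR and 0 in introns.

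Huwe1 (35 exonic peaks) encodes a ubiquitin ligase of the HECT type, and Usp9x (27) encodes a deubiquitinase. Srrm2, a splicing coactivator rich in serine and arginine, had 32, and 30 of them lay in its exon 10, which is 6569 nt long. Flna, the actin crosslinker filamin A, had 29 exonic peaks, 1 in the 3′UTR and 0 in introns. Ranbp2, a nucleoporin, had 26, Cltc, the clathrin heavy chain, had 23, and Rrbp1, a ribosome-binding protein of the endoplasmic reticulum, had 22. Each of these 9 genes had more peaks in exons than in its 3′UTR and introns together.

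**Figure D1:**
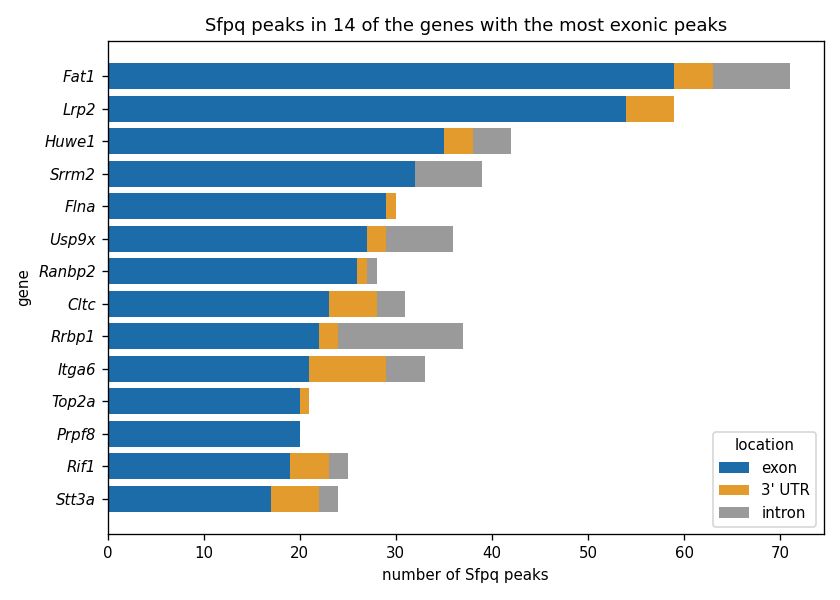
Number of Sfpq peaks (x axis) in 14 of the genes with the most exonic peaks (y axis), split by location into exon, 3′UTR and intron. Exonic peaks make up most of each bar, from 17 of them in Stt3a to 59 in Fat1.

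The number of exonic peaks followed coding length in part. Across the 2220 genes with a matched transcript, Pearson's r between peak number and coding length was 0.342 and Spearman's rho 0.267. This is a description across genes, which share libraries and are not independent replicates. Per length the order changed. Among genes with 5 or more exonic peaks, Tmem47, a small membrane protein of cell junctions, had the most with 9.16 peaks per kb of coding sequence. Fstl1, a secreted glycoprotein, had 8.69, Calu, a calcium-binding protein of the secretory pathway, had 8.44, and Csnk1a1, casein kinase 1 alpha, had 8.18. Stt3a, the catalytic subunit of an oligosaccharyltransferase that N-glycosylates proteins in the endoplasmic reticulum, had 17 exonic peaks or 8.03 per kb, and they touched 16 of its 18 exons. Ctsl, the lysosomal protease cathepsin L, had 7.96 and Magt1, a subunit of a related oligosaccharyltransferase, had 7.94. Over all genes with an exonic peak the median was 1.24 per kb.

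Of the 10 highest-scored exonic peaks, 7 lay on folding genes of the endoplasmic reticulum and 3 on Slc2a3. The scores of all exonic peaks had a median of 11, quartiles of 9 and 16 and a maximum of 243. The folding genes among those 10 were Hspa5, Canx, Pdia3 and Hsp90b1. A score compares control with siSfpq cells and is not a level of binding per molecule of mRNA.

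Hspa5, the chaperone BiP, had 8 exonic peaks with scores, from the start codon to the stop codon, of 110, 54, 72, 152, 131, 117, 135 and 243. All 8 lay above the third quartile of exonic peaks. The peak of 243, at chr2:34775875-34776289, was 415 nt long and ran past the stop codon into the 3′UTR. Hspa5 had 1 further Sfpq peak in its 3′UTR and 0 in introns.

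Slc2a3, the neuronal-type glucose transporter GLUT3, had 8 exonic peaks on 8 of its 10 exons, with scores from 5′ to 3′ of 64, 118, 227, 45, 86, 155, 154 and 104. It also had 6 peaks in the 3′UTR and 5 in introns. Canx, the lectin chaperone calnexin, had 11 exonic peaks with scores of 180, 28, 111, 86, 64, 108, 34, 89, 110, 62 and 123. Its introns carried 20 peaks, more than its coding sequence.

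Pdia3, a protein disulfide isomerase that acts with calnexin and calreticulin, had 11 exonic peaks with scores of 20, 47, 35, 48, 58, 155, 96, 161, 166, 13 and 16. The peaks above 90 were all in exons 7 to 10. Hsp90b1, the Hsp90 of the endoplasmic reticulum, had 13 exonic peaks with scores of 81, 62, 147, 147, 162, 92, 23, 40, 132, 53, 79, 122 and 94, each in an exon of its own. Calr, calreticulin, had 5, with scores of 16, 58, 138, 21 and 33, and Pdia6, another disulfide isomerase, had 7, with scores of 64, 36, 33, 135, 69, 44 and 37. Apart from these genes, the highest scores were 117 in Eef1a1, the elongation factor that brings aminoacyl-tRNA to the ribosome, 107 in Slc38a2, an amino acid transporter, and 98 in Ywhae, a 14-3-3 protein.

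**Figure D2:**
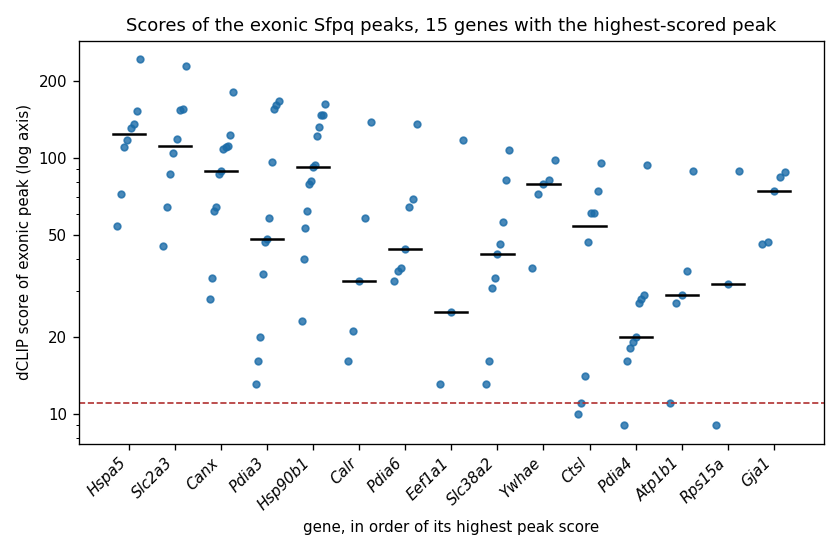
dCLIP score (log axis) of each exonic Sfpq peak in the 15 genes with the highest-scored peak, in order of that score. Points are peaks, black bars are the median of the gene, and the dashed line is the median of all exonic peaks, 11; in Hspa5, Slc2a3 and Canx every peak lies above it, and so do the 13 of Hsp90b1.

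The gene lists were chosen with earlier results known, and their counts are descriptions. Of 26 protein folding genes, 25 had an exonic Sfpq peak (96.2%). All 25 members with any Sfpq peak outside intergenic regions thus had an exonic one, beside 2230 of the 4947 genes with any such peak (45.1%). Each list below is given on both bases, all members and members with any such peak. Only the share among members with any such peak can be read against that 45.1%. In 3′UTRs 12 of the 26 had a peak, and in introns 10. Their 171 exonic peaks had a median score of 26 against 11 for all exonic peaks, and a median of 4.67 peaks per kb against 1.24. When the list was divided by compartment, a division made after the values were seen, the 7 members of the endoplasmic reticulum had 64 exonic peaks with a median score of 64. The 15 of 16 cytosolic members that had exonic peaks held 78, with a median score of 18.5. The 3 mitochondrial members, Hspa9, Hspd1 and Hspe1, held 29 peaks with a median score of 23, and Hspa9 had 15 of them with scores from 14 to 39. Some other folding genes of the endoplasmic reticulum were not on the list, and their median scores were below 64. These were 13 in Hyou1, 23 in P4hb, 11 in Uggt1 and 28 in Ero1a. The difference between compartments thus holds for the listed members alone.

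Of the 15 cytosolic folding genes with an exonic peak, 7 had none in the 3′UTR or introns, beside 658 of all 2230 genes with an exonic peak (29.5%). Cct2 and Cct4, subunits of the chaperonin that folds actin and tubulin, had 9 exonic peaks each and 0 in the 3′UTR and introns. Cct8 had 11, with 0 in the 3′UTR and 2 in introns.

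Among RNA-binding proteins, 18 of 20 hnRNP genes had an exonic peak, or 94.7% of the 19 with any such peak. These proteins package nascent transcripts and act in splicing and mRNA export. Hnrnpu had 14 exonic peaks with scores of 9 to 44, Hnrnpa2b1 had 7 with scores of 17 to 75, and Hnrnpab had 6 with scores of 16 to 88. The hnRNP peaks had a median score of 17. Of 52 splicing factors, 39 had an exonic peak (84.8% of 46), with 181 peaks of median score 12. Prpf8, the core protein of the spliceosome, had 20 exonic peaks with scores of 8 to 32 and no other Sfpq peak in its 3′UTR or introns. Dhx15, an RNA helicase that takes spliceosomes apart, and Sf3b1, which recognises the branch point, had 12 each. Snrnp200, the helicase that unwinds the U4/U6 duplex, had 9 and none in the 3′UTR or introns.

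Sfpq mRNA carried 7 exonic peaks of its own protein, with scores along the coding sequence of 8, 13, 30, 10, 8, 17 and 20, besides 2 peaks in the 3′UTR and 14 in introns. In the list of paraspeckle genes and Sfpq partners, 11 of 14 members had an exonic peak (78.6%, since all 14 had some Sfpq peak), where Neat1 and Malat1 are non-coding and can have none of this kind. Taf15, an RNA-binding protein, had 7 exonic peaks against 41 in introns. Matr3 had 3 exonic and 23 intronic peaks, and Tardbp, which encodes TDP-43, had 4 exonic and 9 in the 3′UTR.

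Of 29 translation factors, 23 had an exonic peak (82.1% of the 28 with any such peak), with a median score of 15. Eif4g2 had 16 exonic peaks with scores up to 53, Pabpc1, the cytoplasmic poly(A)-binding protein, had 12 with scores up to 65, and Eif3a, the largest subunit of eIF3, had 11. Of 32 cytoskeleton genes, 22 had an exonic peak (91.7% of 24). The 8 peaks of Tubb5, a beta-tubulin, had scores of 33 to 84, whereas the 14 of Dync1h1, the dynein heavy chain, had scores of 8 to 15. Of 60 chromatin regulators, 37 had an exonic peak (67.3% of 55), at a median of 0.446 per kb; Chd4, the ATPase of the NuRD complex, led with 17. Ribosomal protein genes reached 24 of 90 members (63.2% of 38) and histone genes 15 of 102 (40.5% of 37), each of the 15 with a single peak. Zinc finger genes reached 26 of 465 (21.5% of 121), fewer than the 48 with a 3′UTR peak and the 83 with an intronic peak. Of the 106 cadherin and protocadherin genes, 4 of the 12 with any such peak had an exonic one, namely Fat1, Cdh2, Pcdhgc3 and Fat3 (33.3%), and Fat1 held 59 of their 71 peaks. Histone, ribosomal protein and tubulin genes have near-identical copies, so the gene of a single peak there is uncertain.

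The let-7 pathway and its known targets had exonic peaks in 12 of 28 genes (66.7% of the 18 with any such peak, beside 45.1%) and 3′UTR peaks in 16. Trim71, an RNA-binding ubiquitin ligase and classic let-7 target, had 9 exonic peaks with scores of 8 to 35, and 8 of them lay in its exon 4. Lin28a, which binds let-7 precursors and blocks their maturation, had 3, with scores of 19, 19 and 18 and lengths of 165, 85 and 350 nt. The last, at chr4:134005945-134006294, covered the end of the coding sequence and the start of the 3′UTR. Igf2bp1 had 4 exonic peaks with scores from 5′ to 3′ of 11, 8, 9 and 25, against 24 in the 3′UTR. Of the 30 miRNA silencing genes, 13 had an exonic peak (56.5% of 23), led by Cnot1, the scaffold of the deadenylase complex, with 15. Among 28 pluripotency genes, 11 had one (68.8% of 16). Pou5f1, which encodes Oct4, had 2 peaks with scores of 12 and 14, and Sox2 had 2 with scores of 11 and 15. Rif1, a telomere and replication protein, had 19.

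Of the genes that the study follows as let-7a targets or examples, Hic2, Mier2, Ash1l, Atf6b and Dusp1 had 0 exonic Sfpq peaks. Notch2, the receptor, had 17 with scores of 8 to 20, Map1b had 13, Skil and Lamp2 had 4 each, Nemp1 had 2, and Bbx had 1.

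The share of genes that encode a protein with a hydrophobic segment was higher in classes with more exonic peaks. Such a segment was taken as a stretch of 19 residues with a mean Kyte-Doolittle hydropathy of at least 1.6 in the longest RefSeq protein of the gene, which is a rough mark of a membrane-spanning helix. The measure was chosen after the leading genes were seen, and it is given as a description. The share was 32.2% (95% Wilson interval 29.4 to 35.1) in genes with 1 exonic peak, 38.4% (35.1 to 41.7) with 2 to 4, 49.6% (43.9 to 55.4) with 5 to 9 and 64.3% (54.4 to 73.1) with 10 or more. It was 38.1% over all genes with an exonic peak, 35.9% over genes with 3′UTR peaks, 28.3% over genes with intronic peaks and 43.6% over 20994 RefSeq coding genes. Signal peptides can pass this limit, and long proteins offer more segments. With a limit of 2.0 the shares for the same 4 classes were 20.0%, 24.0%, 34.9% and 38.8%. Coding length rises with peak number, and its part in this order was not tested.

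**Figure D3:**
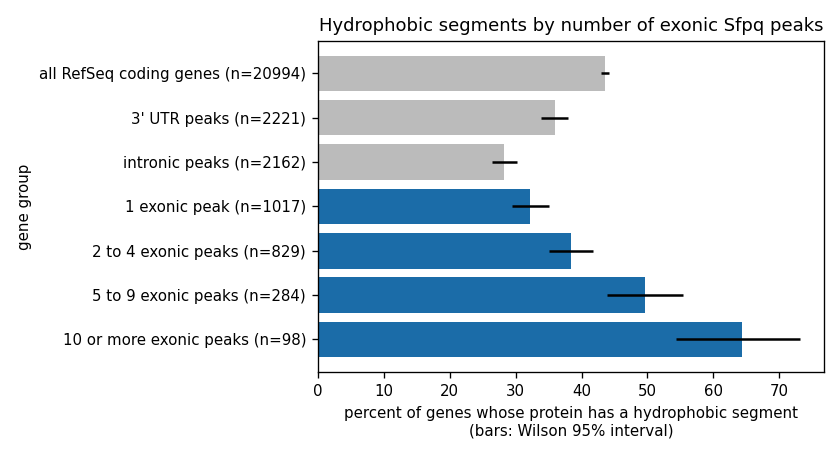
Share of genes whose protein has a 19-residue hydrophobic segment (x axis, percent, with 95% Wilson intervals) by gene group (y axis, with the number of genes). The share goes from 32.2% with 1 exonic peak to 64.3% with 10 or more, and all RefSeq coding genes lie between, at 43.6%.

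Exonic peaks were found along the whole coding sequence. When it was divided into 10 equal parts from the start codon to the stop codon, the parts held between 585 (the fourth, 8.99%) and 756 peaks (the last, 11.6%, 95% interval 10.9 to 12.4). The first part held 615, or 9.45% (8.76 to 10.2). The midpoint of 893 peaks (13.7%) lay within 200 nt before the stop codon, and 246 peaks ran over an end of the coding sequence into a UTR. Densities were set against the coding bases of the transcripts themselves. Last coding exons had 1.59 peaks per kb, inner ones 1.26 and first ones 1.13, against 1.28 over all coding sequence. Coding parts of 1000 nt or more, such as those of Fat1 and Srrm2, had 0.955 peaks per kb as a class, fewer than the 1.41 of parts of 100 nt to under 200 nt.

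**Figure D4:**
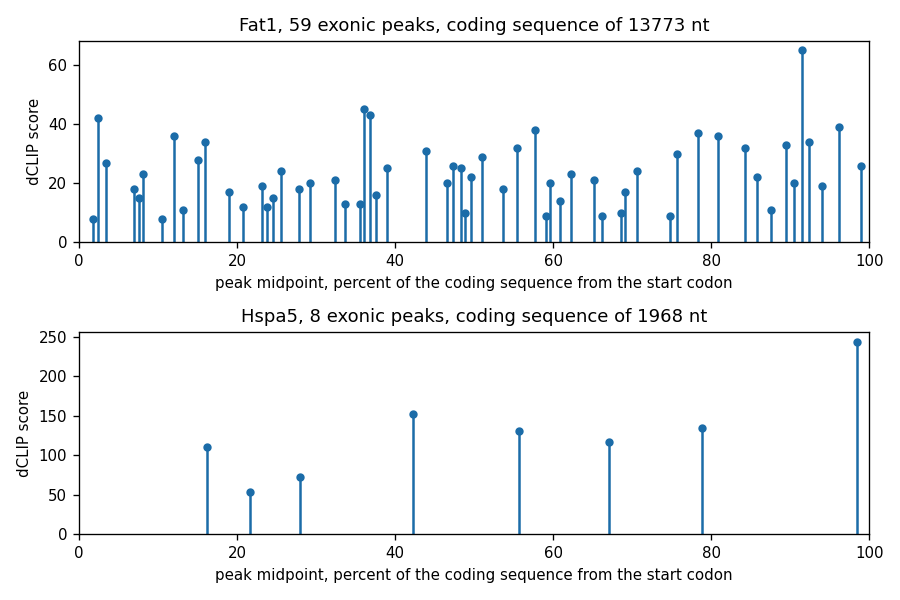
dCLIP score (y axis) of each exonic Sfpq peak of Fat1 and Hspa5 against the place of its midpoint in the coding sequence (x axis, percent from the start codon). The 59 peaks of Fat1 are spread over its whole coding sequence, and the highest-scored of the 8 peaks of Hspa5, 243, lies at the stop codon.

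Of the 6512 peaks that could be placed in an exon, 716 ended within 5 nt of a splice junction without passing it. Of the same 6512, 5717 lay wholly inside it and 795 (12.2%) reached into an intron. Of these 795, 698 went past the exon edge by at most 5 nt, which is the bin width of the peak edges, and the median was 3 nt. A further measure was how far a peak filled its exon. In internal exons, 202 of 5348 peaks covered at least 90% of the exon (3.78%). Hsp90b1 led with 10 of its 13 peaks, followed by Enpp3, an ectonucleotidase, with 7. Hspa5 had 3 of 6 and Pdia3 had 4 of 10. The peak of exon 8 of Hsp90b1 was 115 nt long in an exon of 117 nt, and that of exon 4 of Hspa5 was 115 nt long in an exon of 113 nt. In Fat1, 1 of 43 peaks in internal exons did so.

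Exonic peaks were shorter than 3′UTR peaks and close to intronic peaks in length. Their median was 50 nt, with quartiles of 35 and 80 nt and a range of 5 to 465 nt, against a median of 70 nt in 3′UTRs and 50 nt in introns. The longest lay in Rlim, a ubiquitin ligase of X inactivation, with 465 nt, followed by Hspa5 (415 nt), and Peg10, a gene derived from a retrotransposon, with 405 nt. Peaks of 390 nt were found in Fat1, Ctnnb1, Fem1b and Atp2b1. Those of Ctnnb1, which encodes beta-catenin, and Atp2b1, a calcium pump, lay at the stop codon and continued into the 3′UTR.

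Peaks of at least 100 nt made up 15.1% of exonic peaks, 31.6% of 3′UTR peaks and 13.8% of intronic peaks. In a two-sided exact test (Fisher) the exonic share was lower than in 3′UTRs (odds ratio 0.386, 95% interval 0.355 to 0.419, adjusted exact p = 8.24e-121). It was higher than in introns (odds ratio 1.11, 1.01 to 1.22, adjusted exact p = 0.0301). This difference from introns turned with the limit, since 3.72% of exonic and 4.58% of intronic peaks were 150 nt or longer (odds ratio 0.805, adjusted exact p = 0.0105). Adjustment here and below is by Benjamini-Hochberg over the 16 comparisons of exonic peaks with 3′UTR or intronic peaks, and the tests treat peaks as independent.

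A score of at least 14 was reached by 34.7% of exonic peaks, 38.5% of 3′UTR peaks and 21.5% of intronic peaks. The exonic share was lower than the 3′UTR share (odds ratio 0.850, 0.794 to 0.910, adjusted exact p = 3.32e-06) and higher than the intronic share (1.95, 1.81 to 2.09, adjusted exact p = 9.64e-72).

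**Figure D5:**
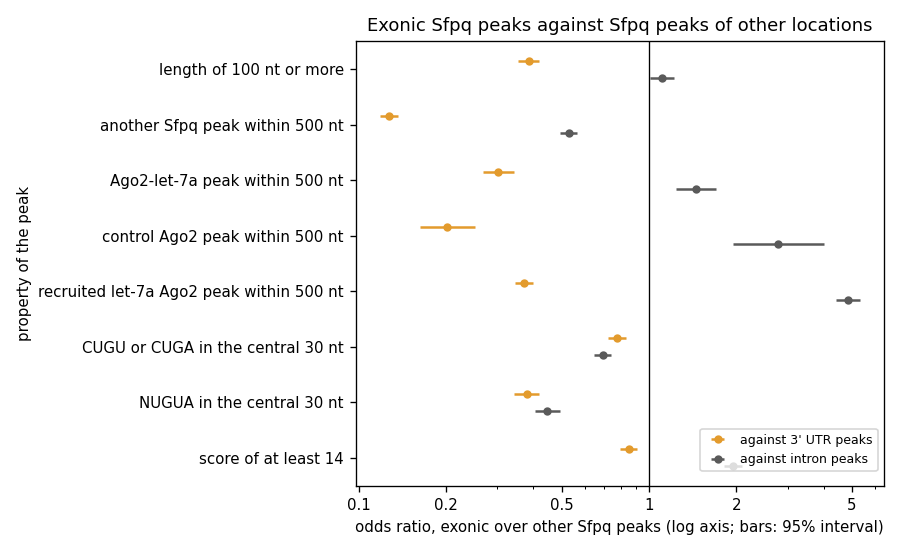
Odds ratios (log axis, bars are 95% intervals) for exonic Sfpq peaks against 3′UTR peaks and against intronic peaks, for 8 properties of a peak (y axis). All 8 ratios against 3′UTR peaks lie below 1, down to 0.127 for another Sfpq peak within 500 nt, and the ratio against introns is highest for recruited let-7a Ago2 peaks, at 4.83.

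Exonic peaks had fewer near neighbours on the chromosome. Another Sfpq peak lay within 500 nt on the same strand for 34.9% of them, against 80.9% of 3′UTR peaks (odds ratio 0.127, 95% interval 0.118 to 0.137) and 50.3% of intronic peaks (0.529, 0.495 to 0.566, adjusted exact p = 6.70e-79). The median gap was 1255 nt for exonic, 105 nt for 3′UTR and 495 nt for intronic peaks. Along the spliced transcript, where introns are left out of the distance, 75.5% of exonic and 82.1% of 3′UTR peaks had a neighbour within 500 nt. The odds ratio was then 0.673 (adjusted exact p = 7.63e-22). This count was added after the data were seen. With 1 peak per gene and location the difference from introns was no longer detected, at 23.7% against 24.1% (odds ratio 0.978, adjusted exact p = 0.752).

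The words connected with Sfpq were rarer in exonic peaks than in the other locations. The study derived these words from its own Sfpq peaks, in part from those in 3′UTRs alone. A higher share in 3′UTR peaks, or in peaks than outside them, was thus partly built in by that choice. The tests below are therefore not independent support for the words. CUGU or CUGA stood in the central 30 nt of 33.8% of exonic peaks, 39.7% of 3′UTR peaks (odds ratio 0.775, 0.724 to 0.830, adjusted exact p = 2.81e-13) and 42.5% of intronic peaks (0.692, 0.647 to 0.740, adjusted exact p = 6.17e-27). NUGUA stood in 9.31%, 21.3% (0.379, 0.343 to 0.419, adjusted exact p = 2.94e-89) and 18.7% (0.447, 0.404 to 0.494, adjusted exact p = 7.29e-60). Base composition moved with location, with a median GC content of 48.0% in exonic, 42.1% in 3′UTR and 44.4% in intronic peaks, and its part in the difference was not tested. Inside coding sequence the words were counted over all peaks together and gene by gene. CUGU and CUGA together had 1.32 matches per 100 nt in peaks and 1.14 in the rest of the same coding sequences, a ratio of 1.16, and NUGUA had 0.347 and 0.251, a ratio of 1.38. By gene, CUGU and CUGA were denser in the peaks of 1151 genes and denser outside them in 1065. NUGUA was denser in the peaks of 659 genes and denser outside them in 1359. A NUGUA was found anywhere in 18.5% of exonic peaks. A gene with the word outside its peaks and none in them counts as denser outside. The count by gene therefore cannot decide whether NUGUA was denser in peaks, and the count for CUGU and CUGA has the same limit. Of 135366 windows of 30 nt outside the peaks, 27.4% held CUGU or CUGA and 6.39% held NUGUA. These are descriptions with no test, and CUGU or CUGA was found anywhere in 52.6% of exonic peaks.

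Exonic peaks mostly lay on genes that were bound elsewhere too. Of the 2230 genes, 1280 (57.4%) also had a 3′UTR Sfpq peak, beside 44.9% of the 4947 genes with any non-intergenic Sfpq peak. An intronic peak was carried by 888 (39.8%), beside 45.3%. Every gene of the 4947 has some Sfpq peak, so those without an exonic one must have one elsewhere. This raises the shares of 44.9% and 45.3%, and the lower intronic share cannot show that exonic and intronic peaks avoid each other. The 1280 shared genes were 57.6% of the 2221 genes with 3′UTR peaks, and the 888 were 39.6% of the 2242 genes with intronic peaks. Peaks in all 3 locations were found on 596 genes (26.7%), with a median of 3 exonic peaks each. These genes held 2514 exonic peaks, or 38.5% of all. Exonic peaks alone, with no 3′UTR or intronic peak, were found on 658 genes (29.5%), with a median of 1. They held 1142 peaks (17.5%).

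The gene with the most exonic peaks among these 658 was Prpf8 with 20, followed by Dync1h1 with 14. Mdn1, a giant ATPase of ribosome assembly, Uggt1, the glucosyltransferase that senses misfolded glycoproteins, and Mia3, which exports collagen from the endoplasmic reticulum, had 10 each. The share with intronic peaks depended on the score, for it was 19.4% when only peaks with a score of at least 14 were used, while the share with 3′UTR peaks was 54.6%.

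Ago2 peaks in exons overlapped the same gene set in part. The Ago2-let-7a list holds the peaks that the authors' dCLIP comparison of let-7a with control cells returned, not all Ago2 peaks of let-7a cells. In that list 694 peaks lay in exons of 591 genes, and 301 of these genes also had an exonic Sfpq peak. That was 13.5% of the exonic Sfpq genes, beside 8.35% of all genes with a non-intergenic Sfpq peak, and 50.9% of the exonic Ago2-let-7a genes. Control Ago2 peaks were listed in exons of 126 genes, of which 55 had an exonic Sfpq peak. They were 2.47% of the exonic Sfpq genes, beside 1.52%, and 43.7% of the control Ago2 genes. Recruited let-7a Ago2 peaks, which were listed for cells with siSfpq and let-7a against let-7a alone, lay in exons of 1363 genes, and 918 had an exonic Sfpq peak. They were 41.2% of the exonic Sfpq genes, beside 23.4%, and 67.4% of the recruited genes. For Ago2 peaks of siSfpq cells the shared genes numbered 1388 of 3101, or 62.2% of the exonic Sfpq genes, beside 39.5%. Genes with 3′UTR Sfpq peaks, 1280 of which also had an exonic one, lay between these shares. They carried exonic peaks of the Ago2-let-7a, control Ago2 and siSfpq Ago2 lists in 11.9%, 1.98% and 53.7%. The recruited list gave the same order. The excess over all genes with a non-intergenic Sfpq peak was thus not particular to exonic Sfpq genes.

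Exonic Sfpq peaks had fewer Ago2 peaks nearby on the chromosome than 3′UTR peaks and more than intronic peaks. Introns count in this distance, and unlike that between Sfpq peaks it was not measured along the spliced transcript. An Ago2-let-7a peak lay within 500 nt of 5.36% of exonic Sfpq peaks, 15.7% of 3′UTR peaks (odds ratio 0.303, 0.268 to 0.343, adjusted exact p = 1.22e-92) and 3.75% of intronic peaks (1.45, 1.24 to 1.70, adjusted exact p = 3.32e-06). For control Ago2 peaks the shares were 1.47%, 6.88% (0.202, 0.162 to 0.252, adjusted exact p = 5.92e-62) and 0.532% (2.79, 1.95 to 3.99, adjusted exact p = 6.67e-09). For recruited let-7a peaks they were 29.1%, 52.5% (0.371, 0.346 to 0.397, adjusted exact p = 2.22e-180) and 7.83% (4.83, 4.39 to 5.32, adjusted exact p = 4.50e-257).

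Direct overlap was counted per Sfpq peak and per Ago2 peak, since the Ago2 lists differ in size. They also differ in kind, since the Ago2-let-7a and recruited lists come from comparisons of conditions and the others from read counts. Of the 6534 exonic Sfpq peaks, 99 (1.52%, 95% interval 1.25 to 1.84) shared at least 1 nt with an exonic Ago2-let-7a peak, on 85 genes, and 27 (0.413%) with an exonic control Ago2 peak, on 20 genes. A recruited let-7a peak in an exon overlapped 908 (13.9%), on 496 genes, and an exonic peak of siSfpq cells overlapped 1749 (26.8%), on 834 genes. Per exonic Ago2 peak, 13.7% of 694 Ago2-let-7a, 16.6% of 145 control Ago2, 29.9% of 2997 recruited let-7a and 24.7% of 6411 siSfpq Ago2 peaks overlapped an exonic Sfpq peak. Fat1 had 37 exonic recruited let-7a peaks beside its 59 Sfpq peaks, Srrm2 had 22, Prpf8 and Eif3a had 18 each, and Hsp90b1 had 14.

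Slc2a3 and Peg10 stood out among the genes with direct overlap. Slc2a3 had 4 exonic Ago2-let-7a and 4 exonic control Ago2 peaks. Its Sfpq peak of score 227 at chr6:122737165-122737304 shared 80 nt with an Ago2-let-7a peak, and that of score 154 at chr6:122731535-122731599 overlapped a peak of both lists. Peg10 had 5 and 4. Its Sfpq peak of score 81 at chr6:4754595-4754624, 30 nt long, shared 25 nt with an Ago2-let-7a peak and lay wholly inside a control Ago2 peak. In Hspa5 the Sfpq peak of score 117 held an Ago2-let-7a peak of 95 nt in full, and in Hsp90b1 one of score 147 shared 90 nt with such a peak. Lin28a had 2 overlapping pairs. In Trim71 an Ago2-let-7a peak overlapped the Sfpq peaks of score 35 and 19.

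The let-7a seed match stood in 15 of the 694 exonic Ago2-let-7a peaks (2.16%). This share was not set against other locations or a random expectation. The mature miRNA, as given by RefSeq for GRCm38, is shown with its seed, bases 2 to 8, in capitals, followed by the only pair of sites UACCUC, the complement of bases 2 to 7, found in exonic Ago2-let-7a peaks that overlapped an exonic Sfpq peak, with the site in capitals.
let-7a-5p: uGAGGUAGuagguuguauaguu
Slc7a1, chr5:148352127-148352156: acgggcucagccUACCUCuacagcuacgug
Sall1, chr8:89032493-89032522: cccacguccagcUACCUCagagcagcuccg
The site stood in 2 of the 95 overlapping Ago2 peaks (2.11%, 95% interval 0.579 to 7.35) and in 13 of the 599 others (2.17%, 1.27 to 3.68). The site of Slc7a1 lay inside its Sfpq peak at chr5:148352065-148352149, whereas that of Sall1 lay outside its Sfpq peak, which ended at position 89032354. Both Ago2 peaks, in Slc7a1, an amino acid transporter, and Sall1, a zinc finger transcription factor, were absent from the authors' lists of peaks reduced on Sfpq knockdown.

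A peak is called dismissed where it is on the authors' lists of Ago2-let-7a peaks reduced on Sfpq knockdown, and kept otherwise. To be listed, a peak had to be weaker after Sfpq knockdown in let-7a cells. It also had to stay unaltered when Sfpq was knocked down in the absence of the let-7a mimic. A kept peak may have failed either filter, so it is not shown to withstand Sfpq knockdown. Exonic Ago2-let-7a peaks were dismissed less often near an exonic Sfpq peak than away from one. Of the 694 peaks, 188 lay within 500 nt of an exonic Sfpq peak, and 113 of them were dismissed, or 60.1% (95% interval 53.0 to 66.8). Of the other 506 peaks, 420 were dismissed, or 83.0% (79.5 to 86.0), beside 80.2% of all 4202 Ago2-let-7a peaks in any location. The odds ratio was 0.309 (0.212 to 0.448, two-sided Fisher's exact test, p = 1.20e-09), and it was 0.282 with 1 Ago2 peak per gene (exact p = 6.22e-09). With direct overlap in place of distance, 63.2% of 95 peaks and 79.0% of 599 were dismissed (odds ratio 0.457, exact p = 0.00151). The contrast was not particular to exonic Sfpq peaks. With any listed Sfpq peak within 500 nt, 59.3% of 209 Ago2 peaks were dismissed, against 84.3% of the other 485 (odds ratio 0.271, exact p = 4.98e-12).

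The Ago2 scores of the near and distant peaks had medians of 10.5 and 10. Divided by that score after the data were seen, the dismissed share was 60.5% near and 84.7% away for scores of 8 to 9, 65.6% and 82.9% for 10 to 13, and 52.1% and 79.6% for 14 or more. Among the overlapping Ago2 peaks, those on the strongest Sfpq peaks were mostly kept. Where the highest overlapping Sfpq score was 50 or more, 2 of 11 were dismissed (18.2%, 5.14 to 47.7), namely 1 of the pair in Peg10 and that in Gja1, the gap junction protein connexin 43. The other Peg10 peak and those in Slc2a3, Hsp90b1, Hspa5, Ywhae, Slc38a2, Ctsl and Usp9x were kept. Where it was 14 to 49, 31 of 45 were dismissed (68.9%), and under 14, 27 of 39 (69.2%). This split was also made after the values were seen and was not tested. Both overlapping Ago2-let-7a peaks of Lin28a were dismissed, and that of Trim71 was kept.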

How the data were processed

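Sfpq and Ago2 HITS-CLIP libraries of P19 cells (15 samples, 5 groups of 3) were grouped by their labels. The authors trimmed reads with cutadapt, mapped them to mm10 with STAR and Bowtie2 (with versions not stated in the labels or methods), merged replicates and called peaks. The deposited peak lists number 11, with positions and annotated locations. The deposited value is a dCLIP score (threshold 7) for the Sfpq, Ago2-let-7a and recruited let-7a lists, and the authors' read count per peak (minimum 10 reads) for the control Ago2 and siSfpq Ago2 lists. The header of the latter list names control and siSfpq cells, and it was read here as peaks of siSfpq cells. The lists hold 0 columns of values per sample. Peaks called from merged reads can favour abundant RNA, and values of different lists were not compared.

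Peak length was end minus start plus 1. Whether numbering starts at 0 or 1 is not stated there, so printed positions and windows may be off by 1 nt. Peaks were placed on RefSeq transcripts of GRCm38 by the accession in the file, and symbols were brought up to date for 160 exonic peaks. Distances ran from edge to edge on 1 strand. Shares have 95% Wilson intervals and were compared by two-sided Fisher's exact tests with Benjamini-Hochberg adjustment and a threshold of 0.05 (Python 3.11.15, scipy 1.17.1), tested on simulated data. The dismissal test stands alone. Alternatives were 1 peak per gene, stricter scores, and other limits of length, distance and window.

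Genes were named by rule: the 10 with most exonic peaks, those of the 10 highest-scored and 10 longest exonic peaks, up to 20 that overlap exonic Ago2 peaks, up to 6 members of each gene list, and genes the study names. Some genes that the rule takes are not reported here. Genes ranked per kb or found in exons alone, and those named for filled exons, seed sites or scores beyond the 10 highest, were chosen after their values were seen. Members and lists were chosen with earlier results of these data known.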

Additional observations from a re-analysis of the deposited data

How the results depend on the processing

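Of 67 alternative values, 56 kept the direction and the side of the threshold, or moved by less than the interval of the value reported. The share of Sfpq peaks in exons was 17.9% with each gene counted once per location, 23.0% with scores of at least 14, 23.1% with midpoints placed on RefSeq coding exons, and 26.9% with only peaks on the strand of their transcript, the last added after the data were seen. With scores of at least 14, the share of exonic Sfpq genes with a 3′UTR peak was 54.6%, with an intronic peak 19.4%, with an exonic Ago2-let-7a peak 18.8% and with an exonic control Ago2 peak 4.08%. With the RefSeq accession as key the intronic share was 28.8%. The odds ratio of exonic against intronic peaks reversed to 0.805 for length at a limit of 150 nt, and for another Sfpq peak within 500 nt it was 0.978 with 1 peak per gene and location. The cause was not tested. Every comparison treats peaks as independent. No paired analysis was possible because the deposited lists come from merged replicates and carry no value per replicate, and for the same reason no replicate could be left out. Depth per library is unknown here, so a gene without a listed peak is not shown to be unbound.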
